A study of Mus musculus with 2 samples.

Results

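The 10 genes described here encode the enzymes of the lower, energy-yielding stretch of glycolysis, the isomerase that precedes it, lactate dehydrogenase A and the enzyme that makes 2,3-bisphosphoglycerate (BPG): Gpi1, Aldoa, Tpi1, Gapdh, Pgk1, Pgam1, Bpgm, Eno1, Pkm and Ldha. They were taken by name, or by the current symbol of the RefSeq record that the array gives for a probe, so that Pkm is found under its older name Pkm2. This gave 17 of the array's 41174 distinct probes, and 35 of 43379 spots on each array. All 17 were bright enough to be tested, and 3 of them, for Aldoa and Gpi1, reached the ceiling of the scanner and are described apart from the other 14.

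The cells were G1E-ER-GATA-1, a mouse erythroid line that lacks GATA-1 and carries GATA-1 fused to the ligand-binding domain of the estrogen receptor, so that estradiol switches the fusion on. The labels give the strain as GATA-1-null, the tissue as erythroid and the cell type as murine ES cells, from which such lines were derived. All cells were transfected with an siRNA and then given β-estradiol for 24 h, and the arms differed in the siRNA, against Lmo2 or control. Both arms were hybridised together on each of 2 two-colour Agilent arrays, the LMO2 siRNA arm in Cy3 (green) and the control arm in Cy5 (red). The dyes were not exchanged on either array, so an effect of the dye and an effect of the siRNA cannot be told apart. The labels number the arrays 1 and 2 and name no culture for either. The p-values measure only the spread between these arrays, which limma in large part shares over all probes. That spread may be technical. In such bulk RNA, a smaller share of cells with a transcript and less of it per cell cannot be told apart either.

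Glycolysis splits a hexose phosphate (Gpi1, then Aldoa) into triose phosphates, which Tpi1 interconverts. Gapdh, Pgk1, Pgam1, Eno1 and Pkm then carry the trioses to pyruvate, with ATP made at the Pgk1 and Pkm steps, and Ldha reduces pyruvate to lactate while restoring NAD+. Red cells depend on this pathway for ATP once they have lost their mitochondria. They also divert 1,3-bisphosphoglycerate through Bpgm into 2,3-BPG, which lowers the oxygen affinity of haemoglobin. Erythroid maturation brings in the red cell pyruvate kinase from the Pklr gene, while Pkm is the form of precursors and of most other tissues. LMO2 is the bridging subunit of an erythroid complex with GATA-1, TAL1 and LDB1.

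Each probe is a DNA oligonucleotide of 60 bases, and the letters below are those in the deposited scanner files. They are shown because the results turn on which probe reads a gene: the Eno1 probe and 2 Pkm probes read higher, 2 Ldha probes gave opposite signs, and the Pgk1 probes overlap. Probes are named by the row of the array in which they were printed. Where 30 bases are given they are the first 30 of the probe, and capitals mark letters shared between 2 probes.
Eno1, row 246: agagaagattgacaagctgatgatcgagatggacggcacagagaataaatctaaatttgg
Pkm, row 348: tgtagaaagttgtcagagaattcgcagccc
Pkm, row 526: acaccagggaaaattaatgcctctaaaaca
Ldha, row 66: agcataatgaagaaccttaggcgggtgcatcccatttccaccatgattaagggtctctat
Ldha, row 470: tatatgtgtctgtagtgtgcattgcaatat
Gapdh, row 54: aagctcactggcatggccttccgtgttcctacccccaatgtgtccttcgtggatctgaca
Bpgm, row 312: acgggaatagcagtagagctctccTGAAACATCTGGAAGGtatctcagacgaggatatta

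The capitals in the Bpgm probe are a run of 16 bases that also stands in the probe for Pgam2, the muscle form of the related phosphoglycerate mutase, here bases 18 to 47 of that probe.
Pgam2, row 269: ggcattgTGAAACATCTGGAAGGgatgtcc
The Pgk1 probes share 38 bases and the Aldoa probes 27, so each pair samples 1 stretch of its transcript; the first 30 of the Pgk1 run and the whole Aldoa run are given.
Pgk1, shared run: GTTCTTCAAGATCCCATTTAAATTCCTTAG
Aldoa, shared run: CAGGCTCTTTCCCATCACTCTTGCTGC
The probes for Ldha at row 470 and Pkm at row 319 held a stop codon in all 3 reading frames of the printed strand, so they do not lie wholly in coding sequence.

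Values are log2 ratios of the LMO2 siRNA arm over the control arm, below 0 where the knockdown arm was lower. The targeted gene checked the labels: Lmo2 intensity was 1254 and 1138 in the knockdown channel against 8336 and 8571 in the control channel of arrays 1 and 2. Its log2 ratio was -1.92 ± 0.14 (SD, n = 2 arrays; limma adjusted p = 6.4e-12). The share of spots well above background was 55.8% to 68.2% by channel, and 294 to 334 control spots against 68 to 88 knockdown spots were saturated. After the intensity-dependent (loess) normalisation, ratios still drifted with the row: band medians over all unsaturated spots ran from -0.23 to 0.17 on array 1 and from -0.26 to 0.13 on array 2. Member values are therefore given also after division by the position factors that the scanner software stores for each spot (position correction). Drift remained after this step, with band medians from -0.06 to 0.10 on array 1 and from -0.08 to 0.20 on array 2. It then ran the other way at the start of the array, where the first band of rows had the highest median. Tests were also run on the software's own processed signals. Of 12 erythroid markers, 11 were on the array and all 11 were above background in every channel, with summed intensities of 341713 to 361735 in the knockdown channel and 465793 to 481419 in the control channel. The pluripotency markers Nanog and Sox2 were not above background in any channel, although the labels name ES cells, and summed intensities of the 7 pluripotency markers were 557 to 604 against 689 to 796. The knockdown channel was dimmer, with median intensities over spots of 66.7 and 58.2 against 96.8 and 78.3, so summed intensities do not compare the arms. On the normalised ratios limma called 20.9% of all unsaturated probes higher and 24.5% lower. Beside these shares it called 2 of 11 unsaturated erythroid marker probes higher and 5 lower, and 1 of 5 pluripotency probes higher. The same shares stand beside the counts for the other cell types. Limma called 3 of 9 granulocyte and macrophage probes higher and none lower (summed intensities 904 to 961 against 1220 to 1319). Cd68 at 0.51 and 0.58 and Ltf at 0.15 and 0.17 were called. Csf1r at -0.16 and -0.08 and Itgam at -0.08 and -0.11 were not, and Adgre1 and Elane were not above background. For megakaryocytes 2 of 6 were called higher and 1 lower (2200 to 2222 against 2552 to 2723). Gp1ba at 1.15 and 1.21 and Gp5 at 0.63 and 0.61 were the higher ones, and Gp9 at -0.27 and -0.35 the lower one. Pf4 read -0.24 and -0.02 and was not called, but with position correction it was called higher (0.04 and 0.39, limma adjusted p = 0.042). For mast cells 2 of 4 were called higher and none lower (885 on each array against 754 to 763), with Hdc at 1.28 and 1.16 and Cpa3 at 0.28 and 0.46. Gzmb at 0.11 and 0.14 and Fcer1a at -0.03 and -0.03 were not called, and Mcpt8 was not above background. With position correction Fcer1a was called lower, at -0.20 and -0.20 (limma adjusted p = 0.016). For lymphocytes none of 4 was called higher and 2 were called lower (596 to 667 against 881 to 1082). Position correction kept 1 of the 3 granulocyte and macrophage calls, 1 of the 2 lymphocyte calls and all calls of the other marker lists. Over all unsaturated probes 12.1% were called higher both times and 11.5% lower both times. What part cells of these kinds have in the results on glycolysis was not tested.

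Among the 14 unsaturated probes, limma called 6 higher and 2 lower in the knockdown arm at an adjusted p under 0.05, where 20.9% and 24.5% of all 24392 unsaturated probes tested were called. The 6 were those of Eno1, Pgam1, 3 of Pkm and 1 of Ldha, and the 2 were 1 of Pgk1 and the other of Ldha. With position correction 4 were called higher, against 20.7% of all, and 1 lower, against 18.6%. Only the Eno1 probe and the Pkm probes at rows 348 and 526 were called higher both times, 3 of 14 probes from 2 genes against 12.1% of all probes, and none was called lower both times, against 11.5%. The spread that limma shares over probes counted for 14.3 degrees of freedom after loess, 11.3 with position correction and 2.35 with the processed signals. Each probe's own 2 arrays add 1, so the adjusted p-values of the 3 sets do not rest on the same amount of shared spread. With the processed signals limma called none of the 14, against 3.03% higher and 1.33% lower, while 4 had an unadjusted p under 0.05. No unsaturated member probe therefore reached a call in all 3 sets of values, which 2.76% of unsaturated probes did upwards and 0.906% downwards. The words rose and fell are kept for probes that did, and members are said here to read higher or lower. Their median log2 ratio was 0.03 with a range of -0.41 to 0.63, beside a median of -0.02 over all unsaturated probes.

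**Figure D1:**
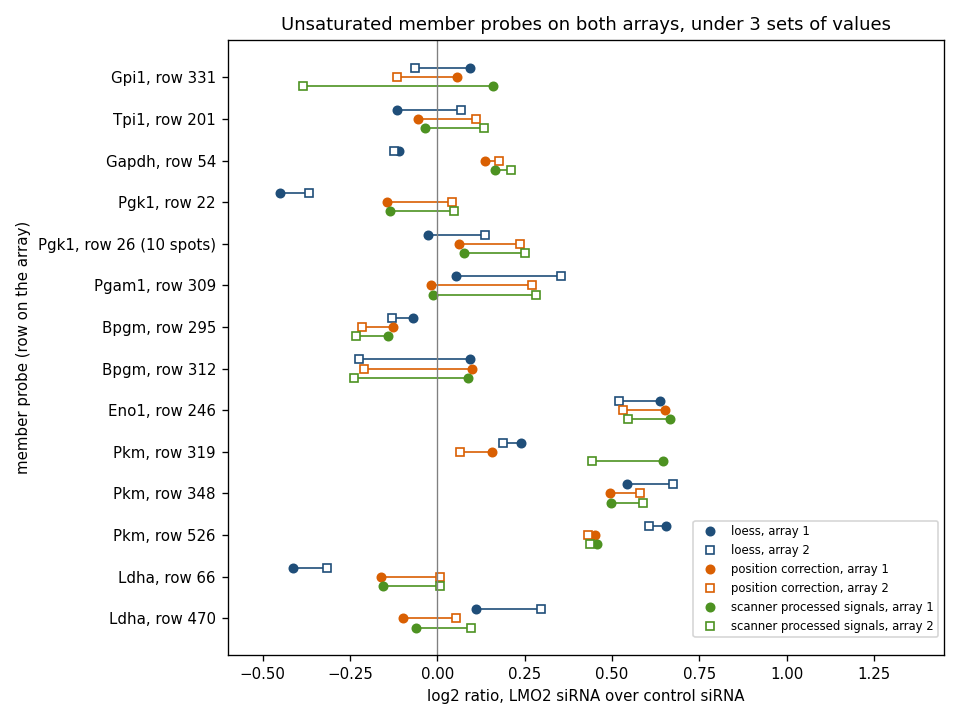
Log2 ratio of LMO2 siRNA over control siRNA (horizontal axis) for the 14 unsaturated member probes, labelled by gene and array row; filled circles are array 1, open squares array 2, and colours the 3 sets of values. The Eno1 probe and the Pkm probes at rows 348 and 526 sit right of 0 in all 3 sets, between 0.43 and 0.68, while the Pgk1 probe at row 22 and the Ldha probe at row 66 move from between -0.45 and -0.32 to between -0.16 and 0.04 with position correction.

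Eno1 encodes alpha-enolase, which makes phosphoenolpyruvate. Its intensity was 1684 and 1587 in the knockdown channel and 1965 and 1982 in the control channel. Log2 ratios were 0.64 and 0.52, a mean of 0.58 ± 0.08 (SD, n = 2), 1.49-fold (95% interval 0.46 to 0.70; limma adjusted p = 1.1e-06). Both arrays read higher by amounts that differed less than their mean. Position correction left 0.65 and 0.53 (limma adjusted p = 1.1e-05), and processed signals gave 0.67 and 0.55 with limma adjusted p = 0.051. The probe sits near the middle of the array, and the Pgk1 spot 10 rows away read 0.05 and 0.22.

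Pkm, the pyruvate kinase of the last ATP-making step, was read by 3 probes. At row 348 the intensities were 3751 and 3407 in the knockdown channel against 4868 and 3925, and log2 ratios were 0.54 and 0.68 (mean 0.61 ± 0.09, SD, n = 2; 1.53-fold; limma adjusted p = 7.3e-07). At row 526 they were 2207 and 2045 against 2588 and 2429, with log2 ratios of 0.65 and 0.61 (mean 0.63 ± 0.03, SD, n = 2; limma adjusted p = 3.5e-07). The 2 probes thus read alike although they share no run of 16 bases, and all 4 of their log2 ratios lay between 0.54 and 0.68. Position correction gave 0.50 and 0.58 at row 348 (limma adjusted p = 2.0e-05) and 0.45 and 0.43 at row 526 (limma adjusted p = 8.6e-05). In the processed signals limma's adjusted p was 0.054 and 0.061. A Pgk1 spot 2 rows from the second probe read 0.33 and 0.50 before position correction and 0.08 and 0.26 after it, below the Pkm probe on both arrays each time. The Pkm probe at row 319 was dim, at 74.8 and 69.7 against 89.1 and 83.7, and its log2 ratios of 0.24 and 0.19 (limma adjusted p = 0.0059) were 0.16 and 0.07 with position correction (limma adjusted p = 0.15).

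The Eno1 and Pkm calls depended on the loess step. When arrays were centred on their median with no intensity-dependent step, the Eno1 probe read -0.04 and the Pkm probes -0.060 and -0.0037, while the median of all unsaturated probes stood at -0.35. Relative to that median they were at 0.32, 0.29 and 0.35. Dim probes not called after loess stood as high on this scale, with Gpi1 at row 331 at 0.38, Ldhb at 0.37 and Ldhd at 0.44. The brighter uncalled probes of Tpi1, Gapdh and Bpgm stood between -0.54 and -0.30. A place above that median therefore does not by itself set Eno1 and Pkm apart. Median centring called none of the 14 member probes higher, against 2.37% of all, and 9 lower, against 61.1%. With genes tested by their brightest unsaturated probe, an alternative chosen after seeing the data, the processed signals gave limma adjusted p = 0.043 for Eno1 and 0.044 for Pkm, and 5.17% of genes were then called higher and 2.74% lower. The scanner software's own p-values, the authors' deposited values for single spots, were 0.0017 and 0.0093 for Eno1 and 0.017 and 0.0053 for Pkm at row 348.

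**Figure D2:**
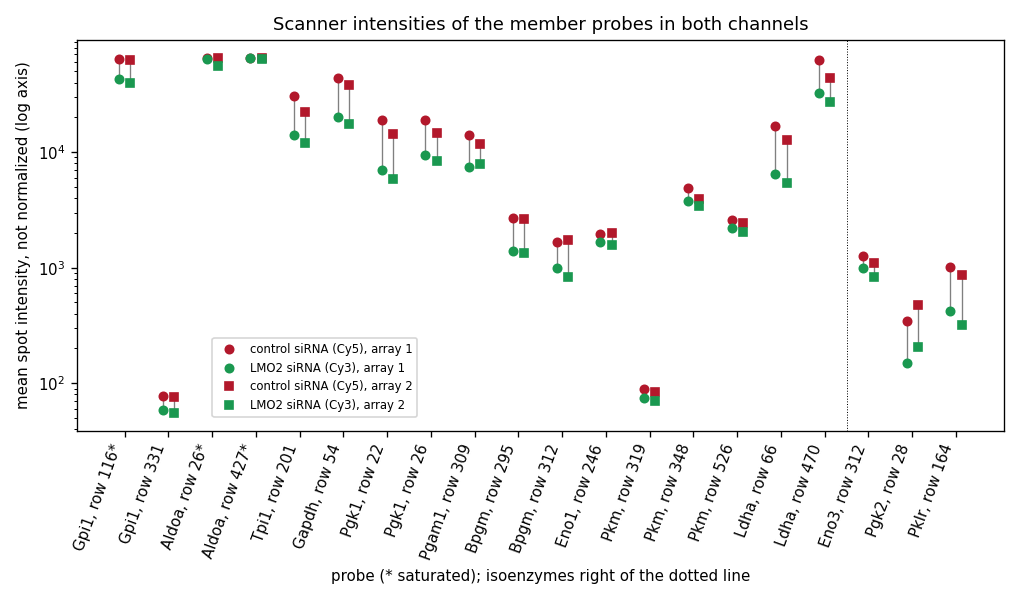
Mean scanner intensity per probe before normalisation (log axis) in the control (Cy5, red) and LMO2 siRNA (Cy3, green) channels; circles are array 1 and squares array 2, asterisks mark saturated probes, and 3 isoenzymes stand right of the dotted line. Control intensities lie at or above those of the knockdown channel for every probe, with narrow gaps for Eno1 (1965 over 1684 on array 1) and wide ones for Pklr (1013 over 423).

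The isoenzymes gave a second reading of the same steps. Of 12 listed, 11 were on the array and 8 had an unsaturated probe bright enough to test: of 10 such probes limma called 1 higher and 2 lower. Over all unsaturated probes 20.9% were called higher and 24.5% lower. Position correction kept 1 and 1 of the isoenzyme calls, beside 12.1% and 11.5% of all probes. The medians were 0.01 for the 10 isoenzyme probes and -0.02 for all. Eno2 and Ldhc, the neuronal and testis forms, were not well enough above background to test, and no probe was matched to Eno1b. The dim probes of Aldoc, Gapdhs, Ldhb, Ldhd and Pgam2, other tissue forms of member enzymes, had mean log2 ratios from -0.09 to 0.12, and limma called none of them.

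Pklr, which encodes the red cell and liver pyruvate kinase, read the other way from Pkm. Its intensity was 423 and 319 in the knockdown channel against 1013 and 857 in the control channel. Log2 ratios were -0.45 and -0.62, a mean of -0.53 ± 0.12 (SD, n = 2; limma adjusted p = 3.6e-06). Position correction gave -0.35 and -0.51 (limma adjusted p = 1.9e-04) and the processed signals -0.41 and -0.59 (limma adjusted p = 0.067), so the sign held in both. Median centring gave -0.90 and -1.21, but it called 61.1% of all unsaturated probes lower, so a sign below 0 there says little. Relative to the median of all unsaturated probes, -0.35, the Pklr mean stood at -0.70. Both arrays therefore had Pklr below 0 and the 2 brighter Pkm probes above 0 after loess; the difference between the isoenzymes was not tested. Eno3, the muscle enolase, read 0.49 and 0.38 (limma adjusted p = 1.9e-05), and 0.41 and 0.27 with position correction (limma adjusted p = 8.2e-04), but -0.01 and -0.27 with median centring. The testis form Pgk2, printed at row 28, read -0.45 and -0.46 (limma adjusted p = 8.4e-06) and -0.17 and -0.06 with position correction (limma adjusted p = 0.14).

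**Figure D3:**
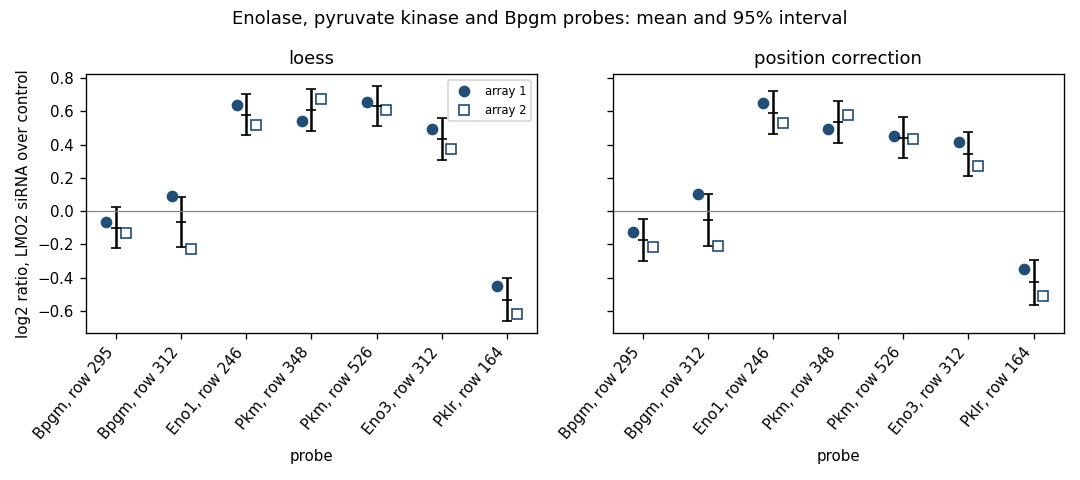
Log2 ratio of LMO2 siRNA over control siRNA (vertical axis) for Bpgm, Eno1, the 2 brighter Pkm probes, Eno3 and Pklr after loess (left) and position correction (right); points are arrays, dashes means and bars 95% intervals from limma. Eno1, Pkm and Eno3 intervals lie above 0 and Pklr's below 0 in both panels, whereas the Bpgm probe at row 312 spans 0.

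Pgk1, which makes the first ATP of the lower pathway, showed how far position alone moved a ratio, because 1 of its probes was printed in 10 spots. On array 1 those spots ran from -0.31 at row 26 to 0.33 at row 524, and on array 2 from -0.25 to 0.50 between the same rows. Low rows read low and high rows high on both arrays. Position correction narrowed them to between 0.00 and 0.11 on array 1 and between 0.16 and 0.27 on array 2; the SD over spots went from 0.20 to 0.03 and from 0.23 to 0.03. Averaged over its spots, the probe read -0.03 and 0.14 (mean 0.05, 95% interval -0.07 to 0.18; limma adjusted p = 0.50), and 0.06 and 0.24 with position correction (limma adjusted p = 0.073). The other Pgk1 probe, at row 22, was called lower at -0.45 and -0.37 (limma adjusted p = 3.0e-05), and read -0.14 and 0.04 with position correction (limma adjusted p = 0.55). A spot of the first probe 4 rows from it read -0.31 and -0.25. When band medians of 19 rows were subtracted instead (row bands, added after seeing the data), the row 22 probe stayed called lower. It then read -0.29 and -0.18 (limma adjusted p = 0.0059).

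Ldha, which turns pyruvate to lactate, was called in opposite directions by its 2 probes. At row 66 the intensities were 6505 and 5353 in the knockdown channel against 16974 and 12647, and log2 ratios were -0.41 and -0.32 (limma adjusted p = 9.3e-05). At row 470 they were 32757 and 27146 against 62800 and 44056, with log2 ratios of 0.11 and 0.30 (limma adjusted p = 0.012). The Pgk1 spot nearest to row 66, 40 rows away, read -0.31 and -0.25, and the next, at row 125, read -0.08 and 0.14. The Pgk1 spot nearest to row 470, 54 rows away, read 0.33 and 0.50. Whether array position accounts for the opposite Ldha calls was not tested. With position correction the Ldha probes read -0.16 and 0.01, and -0.10 and 0.05, and neither was called (limma adjusted p = 0.34 and 0.80). The 95% intervals were then -0.21 to 0.06 and -0.15 to 0.11. With row bands the probe at row 66 stayed called lower, at -0.30 and -0.18 (limma adjusted p = 0.0056). The probe at row 470 read -0.02 and 0.17 with row bands and was not called (limma adjusted p = 0.38).

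**Figure D4:**
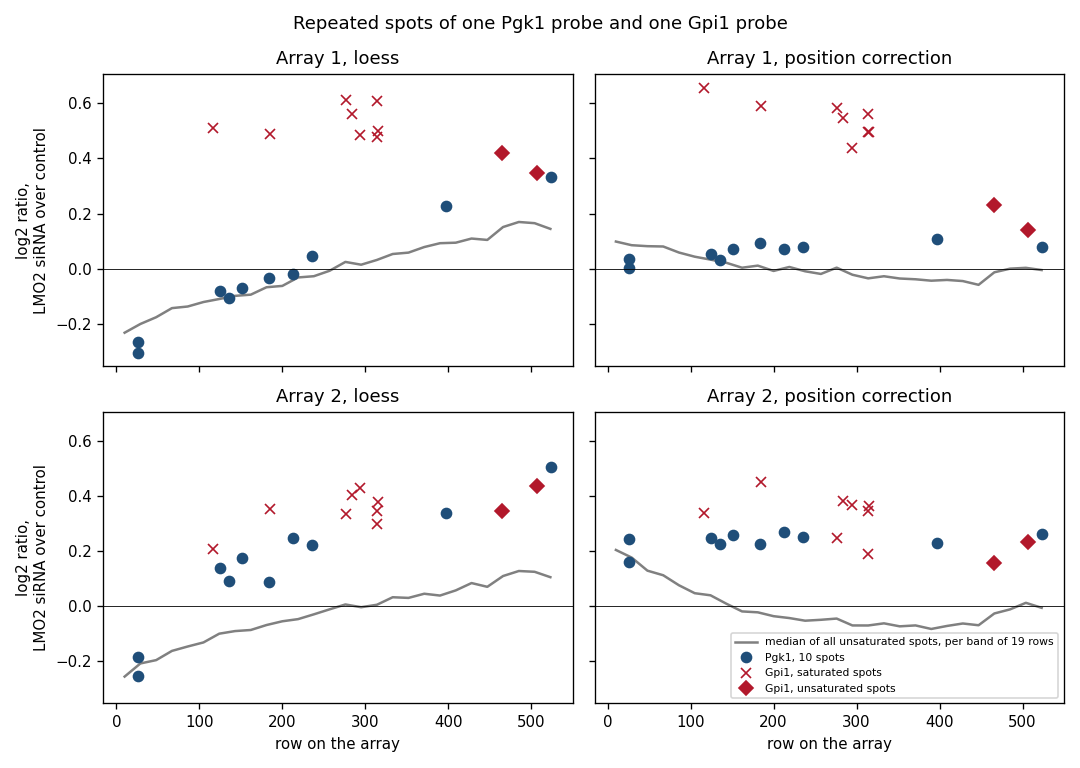
Log2 ratio of LMO2 siRNA over control siRNA (vertical axis) against array row for the 10 spots of 1 Pgk1 probe and the 10 of 1 Gpi1 probe, after loess (left) and position correction (right), array 1 above and array 2 below; the grey line is the median of all unsaturated spots per band of 19 rows. Pgk1 spots climb from -0.31 to 0.33 on array 1 after loess and stay between 0.00 and 0.11 after correction, and on array 2 the corrected grey line still starts at 0.20.

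Gapdh, the NAD+-dependent dehydrogenase often used as a reference transcript, changed sign with the set of values. Its intensities were 20031 and 17587 against 44061 and 37771. It read -0.11 and -0.12 (limma adjusted p = 0.11), but 0.14 and 0.18 with position correction, where it was called higher (limma adjusted p = 0.045), and -0.81 and -0.97 with median centring. Its single probe lies at row 54, where the band medians of all spots were below 0 after loess and above 0 after position correction. Tpi1, the triose phosphate isomerase, read -0.11 and 0.07, with a mean of -0.02 (95% interval -0.15 to 0.11; limma adjusted p = 0.80), so the arrays fell on opposite sides of 0, as they did with position correction at -0.05 and 0.11 (limma adjusted p = 0.74). Pgam1, the phosphoglycerate mutase of most tissues, read 0.05 and 0.35 (mean 0.20 ± 0.21, SD, n = 2; limma adjusted p = 0.023). The 2 arrays lay further apart than the mean lay from 0, and position correction gave -0.02 and 0.27 (limma adjusted p = 0.17).

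Bpgm, the source of 2,3-BPG, was measured by 2 probes of middle brightness. At row 295 intensities were 1405 and 1332 in the knockdown channel against 2702 and 2631, and at row 312 they were 990 and 839 against 1670 and 1745. The first read -0.07 and -0.13 (mean -0.10, 95% interval -0.22 to 0.02; limma adjusted p = 0.18). The second read 0.09 and -0.23 (mean -0.07, 95% interval -0.21 to 0.08; limma adjusted p = 0.48), with the arrays on opposite sides of 0. Position correction gave -0.13 and -0.21 for the first, which was then called lower (limma adjusted p = 0.034), and 0.10 and -0.21 for the second (limma adjusted p = 0.57). In the processed signals neither was called (limma adjusted p = 0.17 and 0.66).

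Aldoa, the aldolase of red cells and muscle, reached the scanner ceiling with both probes in both control channels, at 65236 to 65258, and the probe at row 427 also in the knockdown channel of array 1. A saturated control understates the control arm, so within a set of values a measured ratio is only an upper limit of LMO2 siRNA over control. At row 26 the limits were 1.03 and 0.79 after loess, 1.34 and 1.20 with position correction and 1.38 and 1.25 in the processed signals. On array 2 at row 427, where the knockdown channel was not itself saturated, they were 0.99, 0.79 and 0.85. No fold is given, since the saturated channel was the dimmer one after normalisation. Gpi1, which interconverts glucose and fructose phosphates, was saturated in 8 of the 10 spots of its brighter probe. Its 2 unsaturated spots, at rows 465 and 507, read 0.42 and 0.35 on array 1 and 0.35 and 0.44 on array 2, and with position correction 0.23 and 0.14, and 0.16 and 0.23. Its dim second probe read 0.09 and -0.06 (limma adjusted p = 0.87), and 0.06 and -0.11 with position correction (limma adjusted p = 0.74).

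The RefSeq promoter table (GRCm38.p6) held windows for all 10 genes, 16 in all. The 250 bases before the first listed start of Eno1 and of Pkm are printed because these 2 genes read higher together. They were searched on both strands for the hypoxia response core ACGTG or GCGTG and the GATA motifs AGATAA or TGATAA, in capitals, and for CACCC and CANNTG, left in lower case; CACGTG is 1 form of CANNTG and holds ACGTG.
Eno1, chr4:150236458-150236707, plus strand: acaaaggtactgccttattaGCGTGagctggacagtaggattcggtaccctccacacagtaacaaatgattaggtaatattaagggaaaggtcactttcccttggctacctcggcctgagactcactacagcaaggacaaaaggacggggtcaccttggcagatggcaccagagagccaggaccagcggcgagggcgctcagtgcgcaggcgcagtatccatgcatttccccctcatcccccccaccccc
Pkm, chr9:59656326-59656575, plus strand: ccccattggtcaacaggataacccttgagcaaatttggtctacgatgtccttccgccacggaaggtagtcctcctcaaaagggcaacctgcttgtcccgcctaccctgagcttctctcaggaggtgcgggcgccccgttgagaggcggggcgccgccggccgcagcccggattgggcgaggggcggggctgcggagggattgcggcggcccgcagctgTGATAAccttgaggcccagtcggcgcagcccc
The hypoxia core stood in 11 of the 16 member windows, from 7 of 10 genes, and in 38.6% of all 32851 windows. A GATA motif stood in 2, of Aldoa and Pkm, and in 16.6% of all, CACCC in 9 against 52%, CANNTG in 10 against 66.2%, and CACGTG in 1, of Ldha, against 6.02%. Some windows of Eno1 and of Aldoa overlap, so the same site can be counted more than once. The shares over all are shares of windows, and none was computed over genes, so the gene counts have no share beside them. A match is a description of letters only.

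The surrounding pathway was read from 5 lists. Their counts of calls stand beside 20.9% higher and 24.5% lower over all unsaturated probes, and their counts of calls kept with position correction beside 12.1% and 11.5%. Upper glycolysis had all 15 genes on the array; of 23 unsaturated probes tested limma called 2 higher and 9 lower, with a median of -0.07 beside -0.02 over all, and 0 and 5 of these calls were kept with position correction. Its largest ratios were those of Pfkfb4, which sets the level of fructose 2,6-bisphosphate, and of the glucose transporter Slc2a1. Pfkfb4 fell by 1.26 ± 0.07 on the log2 scale, 2.4-fold (SD, n = 2; limma adjusted p = 3.0e-10). Its intensities before normalisation were 5607 and 4681 in the knockdown channel against 25578 and 22270 in the control channel. Slc2a1 fell by 0.90 ± 0.02 (SD, n = 2; limma adjusted p = 5.7e-09), with -0.89 and -0.92 on the arrays. Both were also called lower with position correction, at smaller means of -1.07 (2.11-fold) and -0.71 (1.64-fold). Processed signals called them lower as well (limma adjusted p = 0.033 and 0.039). None of the 14 unsaturated member probes had a mean ratio as far from 0 as either. Slc2a3, a second glucose transporter, read -0.23 and -0.36, and -0.02 and -0.15 with position correction; Pfkfb2 read 0.20 and 0.25 at row 448 and -0.30 and -0.35 at row 63. With position correction these were -0.03 and 0.05, and -0.05 and -0.07, and neither was called (limma adjusted p = 0.93 and 0.42). Of the other tested Pfkfb2 probes, row 258 read -0.26 and -0.17 and was called lower (limma adjusted p = 0.0061). Row 184 read -0.10 and -0.06 and was not (limma adjusted p = 0.28). Position correction called neither of them (limma adjusted p = 0.11 and 0.59).

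Of 20 probes for the fate of pyruvate and lactate limma called 8 higher and 4 lower (median 0.07), of which 4 and 1 were kept with position correction. Mpc2, of the mitochondrial pyruvate carrier, read 0.51 and 0.55, and the lactate transporter Slc16a1 read 0.37 and 0.39 at row 249; with position correction they read 0.28 and 0.33, and 0.39 and 0.40, and with median centring -0.11 and -0.23, and -0.25 and -0.39. Pdk1, the kinase that restrains pyruvate dehydrogenase, read -0.65 and -0.36 at row 202 and -0.14 and 0.11 at row 477. With position correction both probes were called lower, at -0.61 and -0.35 (limma adjusted p = 1.8e-04) and at -0.39 and -0.11 (limma adjusted p = 0.012). Slc16a3, the lactate exporter, read -0.42 and -0.36, and -0.17 and -0.03 with position correction.

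Of 9 pentose phosphate probes limma called 3 higher and 1 lower (median 0.04), all kept with position correction. The lower one was Rpia, the ribose phosphate isomerase, at -0.76 and -0.83, with -0.52 and -0.51 after position correction (limma adjusted p = 2.6e-05) and limma adjusted p = 0.055 in the processed signals. Pgls read 0.36 and 0.35 and G6pdx, the entry enzyme, 0.17 and 0.31, and with position correction 0.28 and 0.28, and 0.25 and 0.38. Pgd read 0.51 and 0.38 at row 466 and -0.08 and -0.11 at row 2. With position correction both Pgd probes were called higher, at 0.43 and 0.29 (limma adjusted p = 5.9e-04) and at 0.26 and 0.34 (limma adjusted p = 0.0017). With median centring Pgls and G6pdx were below 0 on both arrays. Of 14 probes for the glycerol and serine branches 4 were called higher and 4 lower (median -0.03), of which 2 and 2 were kept with position correction. Gpd2, the mitochondrial glycerol phosphate dehydrogenase, rose by 0.77 ± 0.03 (SD, n = 2) on the log2 scale at row 462. Its limma adjusted p was 3.9e-08, and 0.049 in the processed signals. At row 496 it read 0.59 and 0.65, and the processed signals gave limma adjusted p = 0.054. With position correction it read 0.50 and 0.56 at row 462, and 0.49 and 0.56 at row 496. Psph read -0.56 and -0.64 at row 9, Psat1 -0.18 and -0.24 at row 52, both of serine synthesis, and Shmt2 0.25 and 0.09 at row 473; with position correction these were -0.22 and -0.13, 0.08 and 0.03, and 0.00 and -0.14.

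Among 26 probes of hypoxia and glycolysis regulators limma called 3 higher and 8 lower (median -0.04), and 2 and 6 of these calls were kept with position correction. Bnip3, a mitophagy receptor, read -0.76 and -0.40 and Vegfa, the angiogenic factor, -0.51 and -0.35 at row 109, and with position correction -0.81 and -0.48, and -0.51 and -0.35. Neither was called in the processed signals (limma adjusted p = 0.067 and 0.063). Vhl, printed at row 6, read -0.53 and -0.61 and then -0.20 and -0.14 with position correction. Higd1a read 0.28 and 0.51 at row 306 and -0.17 and -0.14 at row 393, and 0.24 and 0.47, and -0.37 and -0.34 with position correction, so its probes disagreed in both.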

How the data were processed

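Total RNA of both arms was hybridised to 2 two-colour arrays of 60-base probes. The deposited scanner intensities were extracted by the authors with Agilent Feature Extraction 9.1.3.1, per the file headers. The same deposited files hold a log10 ratio and its p-value per spot and, per the file headers, a position factor stored as a ratio to the fitted surface; the series' own log10 table equals the former. Mean intensities were background-corrected (normexp, offset 50) and loess-normalised with limma 3.58.1 in R 4.3.3; control and outlier spots had weight 0, and outlier-flagged spots were left out. Spots of a probe were averaged. Probes well above background in at least 1 channel on both arrays (24701) were tested against 0 with lmFit and eBayes and Benjamini-Hochberg adjustment over all of them, called at 0.05. On simulated data all changed probes (1.5-fold and 2-fold) were recovered, with 20 false calls. The simulated noise was independent and normal, with the variances that limma had fitted. It held no row drift, dye effect or saturation, so it cannot show how many of the real calls are false. The number of arrays limits the precision. Members and lists were chosen with earlier results of these data known. The isoenzymes, except 1 that is not reported here, and up to 4 genes a list, those with the largest absolute ratio at their brightest unsaturated probe, are named. Symbols come from RefSeq records for 24844 probes and from the files for 9636; 6694 have none. The alternatives tried were position factors, processed signals, median centring, offset 10, no background correction, other filters, flagged or saturated spots, a trend prior, genes, the series' table, each array left out and, added after seeing the data, row bands and genes with processed or position-corrected values.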

Additional observations from a re-analysis of the deposited data

How the results depend on the processing

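No paired analysis was possible because the arrays form 1 group and each already holds both arms. Counts below are over all probes tested, saturated ones included (5335 higher and 6005 lower), then over unsaturated member probes (6 and 2) and unsaturated list probes (46). Position correction called 1 member lower. Processed signals gave 884 and 325 probes, 0 and 0 members (both saturated Aldoa probes were called higher, limma adjusted p = 0.031 and 0.035) and 4 list probes; the series' own table gave 815 and 272, 0 and 0, and 3. Median centring gave 639 and 15075, 0 and 9, and 72. Testing genes by the brightest probe gave 3471 and 3857 genes, 0 members lower and 30 in lists; by the brightest unsaturated probe 3327 and 3877, 0 and 30, since fewer features are tested. The latter with processed signals gave 713 and 378, 2 and 0 members, and 4; with position correction 3270 and 2992, 3 and 1, and 27. Lmo2 kept its direction and its call in every alternative with a test, and read -2.02 and -1.82 without array 1 or 2. Where the main or the alternative value was called, signs turned for Gapdh (0.16) and Ldha at row 470 (-0.022) with position correction, tested by probe or by gene, and with median centring for Gpi1 at row 116 (-0.38), Pgk1 in 10 spots (-0.68), Pgam1 (-0.52), Eno1 (-0.037), Pkm at rows 348 (-0.060) and 526 (-0.0037) and Ldha at row 470 (-0.59). The cause was not tested. All 17 member probes kept their side of the threshold with offset 10, no background correction, no filter, the stricter filter, outlier spots kept and the trend prior. Leaving out saturated spots left no value for the 2 Aldoa probes. Row bands ended the calls of 2, Pgam1 and Ldha at row 470, and kept Pgk1 at row 22 and Ldha at row 66 called lower. Signal over background limits the dim Gpi1 and Pkm probes, and the scanner ceiling limits Aldoa and Gpi1.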

Other observations

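The array also carries probes whose file descriptions name a member enzyme without its gene symbol; they were picked after their values were seen. Of 6 for Gapdh-like transcripts 5 could be tested, and 4 of these 5 were as bright as many members. The one named LOC676923, at row 495, had intensities of 14150 and 12472 in the knockdown channel against 19075 and 15846, and read 0.56 and 0.60, or 0.32 and 0.37 with position correction. LOC640374, at row 186, read 0.08 and 0.13, or 0.18 and 0.24, and EG624367, at row 102, read -0.11 and 0.00, or 0.11 and 0.26. The Gapdh probe itself read 0.14 and 0.18 with position correction. The probe at row 475 for a Gapdh-like Ensembl transcript read 0.50 and 0.43, or 0.30 and 0.24. How far these probes bind Gapdh RNA was not tested.

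Of the probes for Ldha-like transcripts, M17518, described as a pseudogene, read 0.03 and 0.20, and LOC385319 read -0.08 and 0.02. The testis aldolase Aldoart2 read -0.35 and -0.29 at row 72 and -0.08 and -0.03 at row 278. With position correction row 72 read -0.13 and -0.001 and was not called (limma adjusted p = 0.42). Row 278 then read -0.16 and -0.16 and was called lower (limma adjusted p = 0.036). An unnamed probe, BG064745, is complementary to the Pgk1 probes over runs of 47 and 51 bases. It was not well enough above background to test, at 47.5 and 46.2 against 60.7 and 54.0.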
